A study of Mus musculus with 13 samples.

Results

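The results concern the 300 kb bins of 4 mouse genes for transcription factors, Trps1, Etv6, Tcf7l2 and Tcf12, whose gene bodies lay in stretches of the genome with very high 5-hydroxymethylcytosine (5hmC). Each gene body touched 2 neighbouring bins, so that the genes were followed in 8 of the 8576 bins analysed. The genes had been picked for their level over all tumours, and their levels and ranks are therefore given as descriptions, with no test. The values were 5hmC percentages from shallow tet-assisted bisulfite sequencing (TAB-seq, which leaves 5hmC as the only cytosine form that resists conversion) of whole tumours of 13 FVB mice, in which the polyoma middle T antigen (PyMT) induces breast tumours. The labels name 4 groups, and the 13 tumours came from as many mice. The tumours of mice heterozygous for Phd2, which encodes an oxygen-sensing prolyl hydroxylase (Phd2+/-, 16 weeks old, n = 4) were set against those of wild-type mice (Phd2+/+, 16 weeks old, n = 3), and the labels state that the heterozygous genotype restores vascularisation and oxygenation of the tumour. The tumours of mice injected hydrodynamically with a PRRL2-sFlk1 plasmid (12 weeks old, n = 3) were set against those of mice injected with empty PRRL2 (12 weeks old, n = 3), and the labels state that sFlk1, known as a soluble VEGF receptor, makes tumours more hypoxic. PyMT was common to all 4 groups, and the cells in which Phd2 is heterozygous are not stated in the labels. The table used here held percentages and no read counts, so that the depth behind each value is unknown. In whole tumours, fewer cells with 5hmC and less 5hmC per cell cannot be told apart, and a DNA mark in bins offers no expression by which to check the tissue.

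5hmC is made from 5-methylcytosine by TET dioxygenases, which need oxygen, iron and 2-oxoglutarate, and it is known to gather in the bodies of transcribed genes while CpG-rich promoters hold little of it. Trps1 encodes a GATA-type zinc finger protein that represses transcription and is well known from luminal breast epithelium. Etv6 encodes an ETS-family repressor needed in blood formation and known in humans as a partner in oncogenic gene fusions. Tcf7l2 encodes an HMG-box factor through which beta-catenin acts on Wnt target genes. Tcf12 encodes HEB, an E protein of the basic helix-loop-helix class that pairs with tissue-specific partners.

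The gene starts show which of the 2 bins holds the promoter. RefSeq promoter entries (GRCm38.p6, 250 bases before to 50 after a start; the tumours were from another strain, FVB) matched 3 of the 4 genes, Etv6, Tcf7l2 and Tcf12. They are printed 5′ to 3′ on the gene's strand with each CG, the dinucleotide at which most 5hmC lies, in capitals. For Tcf7l2 and Tcf12 a start at the 5′ end of the gene and an internal start are shown, because they fall in different bins: chr6:134035450-134035749 (plus strand) for Etv6, chr19:55741560-55741859 and chr19:55895071-55895370 (plus strand) for Tcf7l2, and chr9:72111770-72112069 and chr9:71896047-71896346 (minus strand) for Tcf12.
Etv6 start: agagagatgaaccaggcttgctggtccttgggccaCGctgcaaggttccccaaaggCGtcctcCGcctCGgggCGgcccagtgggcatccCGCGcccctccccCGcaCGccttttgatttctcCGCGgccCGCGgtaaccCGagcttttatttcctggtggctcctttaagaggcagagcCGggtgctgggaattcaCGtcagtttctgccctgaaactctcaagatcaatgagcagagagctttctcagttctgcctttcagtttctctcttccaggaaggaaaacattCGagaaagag
Tcf7l2 first start: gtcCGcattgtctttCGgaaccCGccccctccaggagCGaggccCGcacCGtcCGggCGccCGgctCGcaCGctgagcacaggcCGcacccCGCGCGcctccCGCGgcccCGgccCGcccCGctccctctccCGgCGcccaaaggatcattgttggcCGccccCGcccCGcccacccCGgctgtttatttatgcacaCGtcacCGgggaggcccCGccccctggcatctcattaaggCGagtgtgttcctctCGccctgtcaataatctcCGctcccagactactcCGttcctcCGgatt
Tcf7l2 internal start: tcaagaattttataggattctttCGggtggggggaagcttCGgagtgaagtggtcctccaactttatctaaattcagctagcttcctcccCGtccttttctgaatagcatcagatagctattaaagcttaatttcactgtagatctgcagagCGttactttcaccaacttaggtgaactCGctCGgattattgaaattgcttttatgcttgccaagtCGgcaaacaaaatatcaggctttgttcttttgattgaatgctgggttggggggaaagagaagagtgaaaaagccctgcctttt
Tcf12 first start: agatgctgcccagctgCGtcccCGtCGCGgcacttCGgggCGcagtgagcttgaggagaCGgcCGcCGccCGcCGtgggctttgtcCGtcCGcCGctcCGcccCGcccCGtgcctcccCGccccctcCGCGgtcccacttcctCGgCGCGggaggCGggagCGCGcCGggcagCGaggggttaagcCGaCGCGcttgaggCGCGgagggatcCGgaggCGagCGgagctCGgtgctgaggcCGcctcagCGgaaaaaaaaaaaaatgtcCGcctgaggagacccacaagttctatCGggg
Tcf12 internal start: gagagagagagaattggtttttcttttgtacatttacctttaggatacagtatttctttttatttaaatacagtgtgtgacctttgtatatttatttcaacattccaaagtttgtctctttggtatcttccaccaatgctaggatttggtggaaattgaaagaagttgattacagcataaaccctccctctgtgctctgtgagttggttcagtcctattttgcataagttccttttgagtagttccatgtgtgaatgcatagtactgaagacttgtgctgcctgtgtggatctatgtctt

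The windows differed widely in CG content. The Etv6 window held 17 CG, a count that 31.4% of all 32851 promoter windows reached or passed. The first Tcf7l2 window held 34 CG, reached by 7.73% of windows, and the first Tcf12 window 41, reached by 3.46%. The internal windows held 7 CG in Tcf7l2, the median of all windows, and 0 in Tcf12, as in 5.43% of windows. A further Tcf12 start, chr9:72111152-72111451, held 45 CG. The starts at the 5′ end of the 3 genes lay in the bin with the smaller part of the gene, called the minor bin below, and the internal starts in the bin with most of the gene body, called the main bin. No promoter entry matched Trps1, so the bin of its promoter is not given, and this pattern is not extended to it. A promoter window is 300 bases of a 300 kb bin, so these percentages do not resolve the promoter.

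The main bin held the higher mean 5hmC for all 4 genes. Trps1 (chr15:50654757-50890631) had 80.8% of its length in the main bin chr15:50700001-51000000 and the rest in chr15:50400001-50700000. Etv6 (chr6:134035700-134270158) had 72.6% in chr6:134100001-134400000 and the rest in chr6:133800001-134100000. Tcf7l2 (chr19:55741797-55933659) had 69.7% in chr19:55800001-56100000 and the rest in chr19:55500001-55800000. Tcf12 (chr9:71844252-72111893) had 58.2% in chr9:71700001-72000000 and the rest in chr9:72000001-72300000. Between 44.6% (Tcf7l2) and 63.5% (Trps1) of a main bin was body of the named gene. The bins hold intergenic DNA and other genes too. The main bins of Trps1 and Tcf7l2 held no other protein-coding gene, although the microRNA gene Mir1907 lies inside Trps1, whereas Bcl2l14 reached 3672 bases into that of Etv6 and Cgnl1 109300 bases into that of Tcf12. Of the minor bins, that of Etv6 also held Kap and Gm46977, that of Tcf7l2 part of Vti1a, and that of Tcf12 part of Zfp280d. Each percentage thus belongs to a bin and not to the gene alone.

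Trps1 lay in the bin with the rank 4 of 8576 by mean over the 13 tumours, at 9.85%. The values in its main bin were 12.3%, 11.4%, 10.2% and 11.8% in Phd2+/- tumours 1 to 4, against 9.04%, 7.62% and 10.3% in Phd2+/+ tumours 1 to 3. They were 5.83%, 10.2% and 8.46% in sFlk1 tumours, against 11.8%, 9.62% and 9.32% in empty vector tumours. Wild-type tumour 3 lay above heterozygous tumour 3, and sFlk1 tumour 2 above empty vector tumours 2 and 3, so both pairs of groups overlapped. sFlk1 tumour 1 was the lowest of all 13, and it was the only tumour in which this bin was outside the highest 1% of its bins (85 bins), at rank 183. In the other 12 tumours the rank lay between 3 and 43. The minor bin stood far lower, with a mean of 4.56% and rank 1246, and group means of 4.88% ± 1.38 (SD, n = 4) in Phd2+/- against 4.30% ± 0.471 (SD, n = 3) in Phd2+/+ tumours and 4.28% ± 1.19 in sFlk1 against 4.66% ± 0.669 in empty vector tumours (SD, n = 3 each).

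Etv6 ranked 8 in its main bin, with a mean of 8.80%. The values were 10.9%, 9.98%, 9.43% and 11.5% in Phd2+/- tumours, against 10.7%, 6.53% and 8.83% in Phd2+/+ tumours. They were 7.0%, 7.42% and 5.67% in sFlk1 tumours, against 9.70%, 5.15% and 11.6% in empty vector tumours. Within the empty vector group Etv6 varied most among the 4 main bins: empty vector tumour 2 had the lowest value of all 13 tumours and empty vector tumour 3 the highest. Its rank within a tumour ran from 2 in wild-type tumour 1 to 850 in empty vector tumour 2, and it was among the highest 1% in 11 of 13 tumours. The minor bin averaged 5.60% (rank 468), with 6.92%, 6.66%, 7.63% and 4.43% in Phd2+/- tumours, against 5.89%, 3.49% and 5.83% in Phd2+/+ tumours. Its values were 5.34%, 2.07% and 4.93% in sFlk1 tumours, against 8.58%, 5.41% and 5.58% in empty vector tumours. All 3 sFlk1 tumours were below all 3 empty vector tumours there, while both Phd2 groups overlapped.

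Tcf7l2 ranked 15 in its main bin, with a mean of 8.07%. The values were 10.1%, 9.98%, 8.84% and 9.88% in Phd2+/- tumours, against 7.61%, 6.22% and 8.75% in Phd2+/+ tumours. They were 6.70%, 6.43% and 5.80% in sFlk1 tumours, against 9.85%, 8.0% and 6.81% in empty vector tumours. Every heterozygous tumour was above every wild-type tumour, by a narrow margin between heterozygous tumour 3 and wild-type tumour 3, and every sFlk1 tumour was below every empty vector tumour. The bin was among the highest 1% of bins in 9 of 13 tumours. The minor bin averaged 6.0% (rank 305), with 6.66%, 6.82%, 8.23% and 8.12% in Phd2+/- tumours, against 4.81%, 6.51% and 5.31% in Phd2+/+ tumours. It held 5.68%, 3.34% and 7.12% in sFlk1 tumours, against 5.81%, 4.40% and 5.15% in empty vector tumours. The Phd2 groups again did not overlap, by a narrow margin between heterozygous tumour 1 (6.66%) and wild-type tumour 2 (6.51%). The sFlk1 tumours spread on both sides of the empty vector tumours.

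Tcf12 ranked 13 in its main bin, with a mean of 8.15%. The values were 10.0%, 6.66%, 10.1% and 11.8% in Phd2+/- tumours, against 7.64%, 5.70% and 7.54% in Phd2+/+ tumours. They were 7.78%, 6.73% and 8.51% in sFlk1 tumours, against 7.54%, 7.52% and 8.45% in empty vector tumours. Heterozygous tumour 2 lay below 2 of the wild-type tumours although the other 3 heterozygous tumours were the highest of all 13, and the sFlk1 and empty vector tumours overlapped. In its minor bin, which averaged 5.93% (rank 323), that order turned round, since heterozygous tumour 2 was the highest. The minor bin held 6.19%, 9.64%, 7.95% and 6.86% in Phd2+/- tumours, against 6.20%, 5.38% and 5.90% in Phd2+/+ tumours. It held 4.74%, 4.81% and 3.41% in sFlk1 tumours, against 4.98%, 5.94% and 5.11% in empty vector tumours. Heterozygous tumour 1 was just below wild-type tumour 1, and all sFlk1 tumours were below all empty vector tumours.

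**Figure D1:**
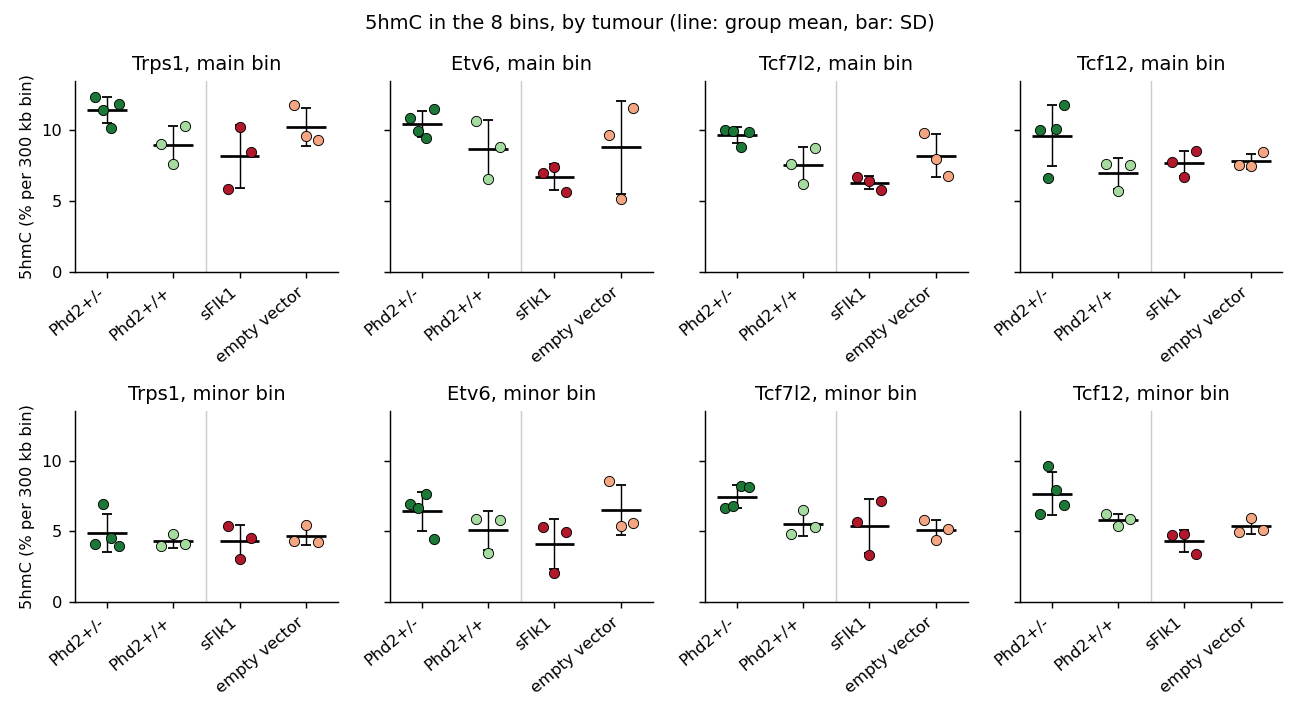
5hmC percentage (y axis, linear from 0) in the main bin (upper row) and minor bin (lower row) of each gene, with a point per tumour, a line at the group mean and a bar of 1 SD; groups are Phd2+/- (n = 4), Phd2+/+ (n = 3), sFlk1 (n = 3) and empty vector (n = 3). All Phd2+/- tumours lie above all Phd2+/+ tumours in both Tcf7l2 bins, but only by narrow margins (8.84% against 8.75%, and 6.66% against 6.51%). The empty vector tumours spread widest in the Etv6 main bin.

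The order of the main bins was Trps1, Etv6, Tcf12 and Tcf7l2. Trps1 exceeded Etv6 by 1.05 percentage points ± 1.90 (SD over 13 tumours), in 10 of 13 tumours, and Etv6 exceeded Tcf12 by 0.647 ± 2.00, in 8 of 13. Tcf12 and Tcf7l2 differed by 0.0813 ± 1.70, with Tcf7l2 the higher in 6 of 13. Neighbours in this order thus differed by less than their spread between tumours. As means of their 2 bins, the genes were closer still, at 7.21% for Trps1, 7.20% for Etv6, 7.04% for Tcf12 and 7.03% for Tcf7l2. The main bin exceeded the minor bin in 13 of 13 tumours for Trps1, by 5.29 percentage points ± 2.20 (SD, n = 13), and in 12 of 13 for Etv6, by 3.20 ± 2.19. It did so in 12 of 13 tumours for Tcf12, by 2.22 ± 2.09, and in 11 of 13 for Tcf7l2, by 2.07 ± 1.66. The exceptions were empty vector tumour 2 for Etv6, heterozygous tumour 2 for Tcf12, and wild-type tumour 2 and sFlk1 tumour 3 for Tcf7l2.

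**Figure D2:**
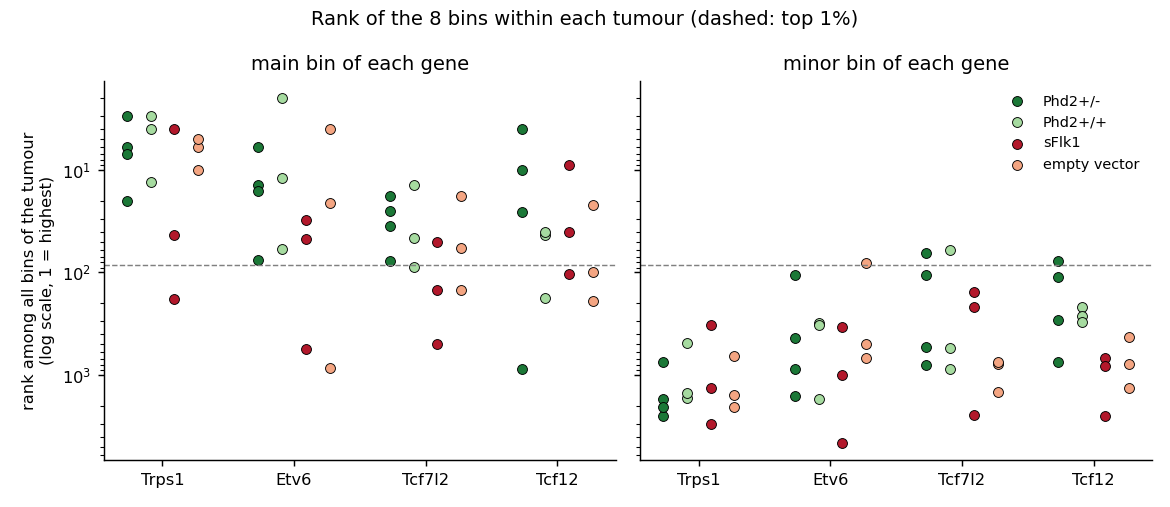
Rank of each bin among the 8576 bins of the same tumour (y axis, log scale, 1 is the highest), a point per tumour coloured by group, with the main bins at left and the minor bins at right and a dashed line at the highest 1% (85 bins). The Trps1 main bin lies above the line in 12 of 13 tumours, while its minor bin never reaches it.

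For comparison, the mean over all bins was 2.61% and the median 2.36%. The 3533 bins with at least 50% of their length in protein-coding gene bodies had a median of 3.45%, with quartiles of 2.10% and 4.53%. The 837 bins with at least 90% had a median of 1.99%, below that of all bins, so the level did not simply rise with gene-body cover. The 1968 bins without a protein-coding gene had a median of 0.977%. All 4 main bins were at 3.10 to 3.78 times the mean of all bins, and the minor bins at 1.75 to 2.30 times. All 8 bins were above 0 in all 13 tumours.

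The surroundings of the genes differed in shape. At Etv6 the level stepped up from bin to bin. The bin at chr6:133500001-133800000, next to the minor bin, averaged 0.840%, with 0.732%, 1.95%, 0.437% and 0.686% in Phd2+/- against 0.543%, 0.803% and 0.336% in Phd2+/+ tumours. In the other model it held 1.03%, 0.181% and 0% in sFlk1 against 1.09%, 2.25% and 0.892% in empty vector tumours. Beyond the main bin the level went down gradually, through 7.29% in the bin of Lrp6, a Wnt co-receptor gene (rank 48), and 5.70% in that of Dusp16, a phosphatase gene, to 1.98% at the neuronal receptor gene Grin2b. The main bin of Etv6 exceeded the bin of Lrp6 in only 8 of 13 tumours.

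At Trps1 the high level went on past the gene, towards higher coordinates, into DNA with no protein-coding gene. The bin chr15:51000001-51300000 averaged 6.53% (rank 151 of 8576) and the next, chr15:51300001-51600000, averaged 7.60% (rank 28). Among the 1968 bins without a protein-coding gene these were ranks 10 and 2. The second of them held 8.93%, 10.4%, 7.71% and 9.16% in Phd2+/- tumours, against 7.01%, 7.50% and 6.53% in Phd2+/+ tumours. Its values were 6.32%, 7.81% and 4.84% in sFlk1 tumours, against 9.38%, 7.02% and 6.09% in empty vector tumours. Heterozygous tumours were all above wild-type tumours there, as in 11.0% of all bins, while the sFlk1 and empty vector tumours overlapped. In the first of the 2 bins the Phd2 groups overlapped, with means of 6.91% in Phd2+/- and 6.88% in Phd2+/+ tumours. Wild-type tumour 1, at 7.97%, lay above heterozygous tumours 1, 3 and 4 in that bin. Singled out after their values were seen, these 2 bins lie between Trps1 and the bin of Eif3h and Utp23, which averaged 5.78%. On the side of lower coordinates the 5 bins, none with a protein-coding gene, held between 0.765% and 1.91%.

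At Tcf7l2 the neighbouring bin towards lower coordinates, that of Vti1a and Acsl5, averaged 4.44%, and the main bin exceeded it in 13 of 13 tumours. Further towards higher coordinates the bin of Afap1l2 averaged 5.38% and that of Ablim1 4.39%. Tcf12 lay in a broadly high region, in which the bin of Myo1e and Rnf111 averaged 7.19% (rank 54), that of Myzap and Cgnl1 6.20% and that of Prtg and Nedd4 5.95%. Lower bins stood between them, 2.72% at Aldh1a2 and 3.60% at Rfx7.

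**Figure D3:**
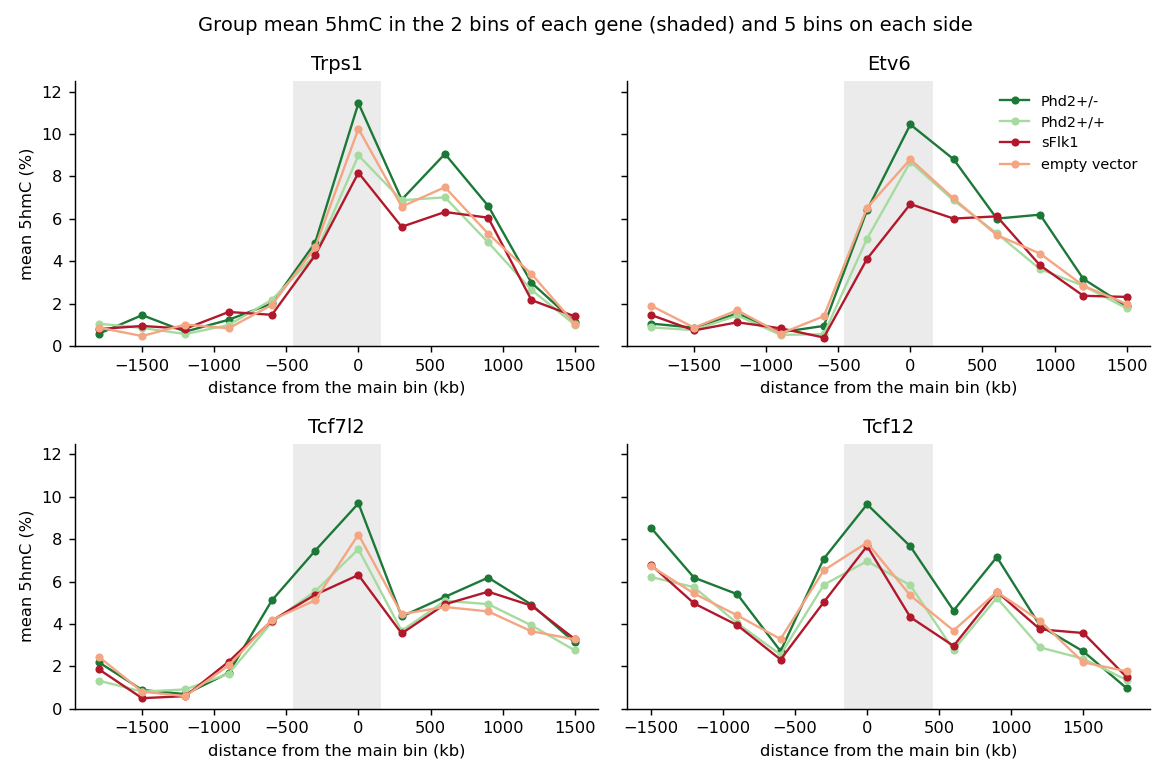
Group mean 5hmC (y axis, percent) in the 2 bins of each gene (shaded) and the 5 bins on each side, against the distance from the main bin in kilobases towards higher coordinates; a line per group. The level drops to 0.840% on the left of Etv6, and stays at 6.53% and 7.60% over the 2 bins on the right of Trps1.

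Phd2+/- and Phd2+/+ tumours were compared to ask whether better oxygenated tumours carry more 5hmC at these genes. The mean was higher in Phd2+/- tumours in 8 of 8 bins, against 75.1% of all bins, but relative to each tumour's mean over bins the Trps1 minor bin and the Etv6 main bin were lower. Without Phd2+/- tumour 2 the Trps1 minor bin had a difference of -0.0996 percentage points. With limma and Benjamini-Hochberg adjustment over all 8576 bins, 0 of the 8 passed at 0.05, as did 0% of all bins. At an unadjusted p under 0.05 there were 3 of 8 higher, both bins of Tcf12 and the minor bin of Tcf7l2, against 10.4% of all bins. The 8 bins had a median difference of 1.87 percentage points, against 0.385 over all bins and 1.25 over the 1715 bins that make up the highest 20% by level, of which 95.3% were higher and 27.2% had an unadjusted p under 0.05. The groups did not overlap in 2 of 8 bins, both of Tcf7l2, against 11.0% of all bins.

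Group values are given as means ± SD over the 4 Phd2+/- and the 3 Phd2+/+ tumours. Of the 4 main bins, that of Tcf12 had the largest difference, with 9.64% ± 2.16 in Phd2+/- and 6.96% ± 1.09 in Phd2+/+ tumours. The difference was 2.68 percentage points (SE 1.18, limma adjusted p = 0.426). The main bin of Trps1 held 11.5% ± 0.921 in Phd2+/- and 8.99% ± 1.35 in Phd2+/+ tumours (difference 2.46, SE 1.43, limma adjusted p = 0.524). That of Tcf7l2 held 9.69% ± 0.570 in Phd2+/- and 7.53% ± 1.27 in Phd2+/+ tumours (difference 2.16, SE 1.08, limma adjusted p = 0.474). For Etv6 they were 10.5% ± 0.920 in Phd2+/- and 8.69% ± 2.09 in Phd2+/+ tumours (difference 1.76, SE 1.40, limma adjusted p = 0.643), and the difference was 0.686 without Phd2+/+ tumour 2 and 2.77 without Phd2+/+ tumour 1. The differences in the minor bins ran from 0.579 (Trps1) to 1.91 (Tcf7l2) percentage points, with limma adjusted p from 0.443 to 0.805. Of these, that of Etv6 was 0.551 without Phd2+/+ tumour 2, against 1.34 with all tumours, and that of Tcf12 was 1.18 without Phd2+/- tumour 2, against 1.84.

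Taking the mean of a gene's 2 bins, and testing it beside all 8548 pairs of neighbouring bins, gave the same outcome with smaller errors. Tcf12 averaged 8.65% ± 0.620 in Phd2+/- and 6.39% ± 0.744 in Phd2+/+ tumours (difference 2.26, 95% interval 0.783 to 3.73, limma adjusted p = 0.150). Tcf7l2 averaged 8.57% ± 0.293 in Phd2+/- and 6.54% ± 0.438 in Phd2+/+ tumours (difference 2.04, 95% interval 0.518 to 3.55, limma adjusted p = 0.183). Trps1 averaged 8.17% ± 0.766 in Phd2+/- and 6.65% ± 0.509 in Phd2+/+ tumours (difference 1.52, 95% interval -0.0227 to 3.06, limma adjusted p = 0.284). Etv6 averaged 8.43% ± 0.396 in Phd2+/- and 6.88% ± 1.69 in Phd2+/+ tumours (difference 1.55, 95% interval -0.296 to 3.40, limma adjusted p = 0.348), and its difference was 0.618 without Phd2+/+ tumour 2. All 4 heterozygous tumours were above all 3 wild-type tumours for Tcf12, Tcf7l2 and Trps1, that is for 3 of 4 genes, against 16.1% of all pairs; for Etv6, wild-type tumour 1, at 8.30%, lay above heterozygous tumour 4, at 7.96%. All 4 genes were higher in the mean, against 81.7% of pairs, and 2 of 4 (Tcf7l2 and Tcf12) had an unadjusted p under 0.05 in that direction, against 17.8% of pairs. Of the 4 genes 0 passed, as did 0% of pairs. The shares of pairs given here and below are over pairs of every level, and none was computed for pairs as high as these.

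The same pairs were set against the tumour's overall level, which itself was 2.87% ± 0.265 (SD, n = 4) in Phd2+/- and 2.34% ± 0.137 (SD, n = 3) in Phd2+/+ tumours, 22.5% higher. Trps1 was 22.9% higher, Etv6 22.6%, Tcf7l2 31.2% and Tcf12 35.3%. Divided by each tumour's mean over bins, Trps1 stood at 2.86 ± 0.210 times that mean in Phd2+/- and 2.84 ± 0.156 times in Phd2+/+ tumours, and Etv6 at 2.96 ± 0.227 times in Phd2+/- and 2.92 ± 0.572 times in Phd2+/+ tumours. Tcf7l2 stood at 3.02 ± 0.387 times in Phd2+/- and 2.80 ± 0.206 times in Phd2+/+ tumours, and Tcf12 at 3.05 ± 0.498 times in Phd2+/- and 2.73 ± 0.165 times in Phd2+/+ tumours. On this scale all 4 were still higher in the mean, with limma p from 0.234 to 0.959 before adjustment. None of the 4 genes thus had a difference beyond the genome-wide one that passed the test.

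In the other model, sFlk1 tumours, which the labels call more hypoxic, were set against empty vector tumours. The mean was lower in sFlk1 tumours in 7 of 8 bins, against 59.5% of all bins, the minor bin of Tcf7l2 being the exception, and relative to the tumour's mean the Tcf12 main bin was higher as well. Without sFlk1 tumour 2 the Trps1 minor bin (0.261 percentage points) and the Tcf12 main bin (0.309) were higher in sFlk1 tumours, and without sFlk1 tumour 3 the Tcf7l2 minor bin was lower (-0.606). With limma 0 of 8 passed, against 0.0117% of all bins, and 1 of 8, the Etv6 minor bin, had an unadjusted p under 0.05 in that direction, against 5.06%. The median difference was -1.47 percentage points over the 8 bins, -0.146 over all bins and -0.579 over the highest 20%, of which 26.4% were higher and 8.92% had an unadjusted p under 0.05. The groups did not overlap in 3 of 8 bins, the Etv6 minor bin, the Tcf7l2 main bin and the Tcf12 minor bin, against 8.24% of all bins that were lower without overlap.

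With all tumours included, Etv6 had the largest differences of the 4 genes. Values are means ± SD over the 3 tumours of each group. Its minor bin held 4.11% ± 1.78 in sFlk1 and 6.52% ± 1.78 in empty vector tumours (difference -2.41 percentage points, SE 1.06, limma adjusted p = 0.661), and the difference was -1.39 without sFlk1 tumour 2 and -1.38 without empty vector tumour 1. Its main bin held 6.70% ± 0.917 in sFlk1 and 8.81% ± 3.31 in empty vector tumours (difference -2.12, SE 1.49, limma adjusted p = 0.774). Its difference rested on single empty vector tumours, being -0.729 without tumour 3 and -3.95 without tumour 2. The Trps1 main bin held 8.18% ± 2.22 in sFlk1 and 10.3% ± 1.36 in empty vector tumours (difference -2.08, SE 1.53, limma adjusted p = 0.790), and the difference was -0.902 without sFlk1 tumour 1 and -1.30 without empty vector tumour 1. The Tcf7l2 main bin held 6.31% ± 0.463 in sFlk1 and 8.22% ± 1.53 in empty vector tumours (difference -1.91, SE 1.15, limma adjusted p = 0.736), and the difference was -1.09 without empty vector tumour 1. The Tcf12 main bin held 7.67% ± 0.894 in sFlk1 and 7.83% ± 0.533 in empty vector tumours. Its difference was -0.161 (95% interval -2.75 to 2.42). The 95% intervals of the other main bins also crossed 0, at -5.22 to 1.07 for Trps1, -5.18 to 0.948 for Etv6 and -4.28 to 0.459 for Tcf7l2. All 4 main bins thus leave room for a change of either sign.

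As means of 2 bins, Etv6 held 5.40% ± 0.718 in sFlk1 and 7.67% ± 2.09 in empty vector tumours (difference -2.26, 95% interval -4.24 to -0.287, limma adjusted p = 0.613). Empty vector tumour 2, at 5.28%, lay among the sFlk1 tumours, which held 6.17%, 4.75% and 5.30%, and without it the difference was -3.46. Empty vector tumours 1 and 3, at 9.14% and 8.58%, lay above their group's mean of 7.67%. Leaving out either of them therefore makes the difference smaller than -2.26 in size. Trps1 held 6.23% ± 0.559 in sFlk1 and 7.46% ± 0.628 in empty vector tumours (difference -1.23, 95% interval -2.88 to 0.421, limma adjusted p = 0.740), with all sFlk1 tumours below all empty vector tumours. Tcf7l2 held 5.84% ± 0.843 in sFlk1 and 6.67% ± 1.01 in empty vector tumours (limma adjusted p = 0.830), and the difference, -0.823, was -0.342 without sFlk1 tumour 2 and -0.243 without empty vector tumour 1. Tcf12 held 6.0% ± 0.244 in sFlk1 and 6.59% ± 0.290 in empty vector tumours (limma adjusted p = 0.886). All 4 genes were lower in the mean, against 63.5% of pairs, 1 of 4 had an unadjusted p under 0.05, against 5.97%, 1 of 4 did not overlap, against 9.56%, and 0 of 4 passed, as did 0% of pairs. In relative terms the differences were -29.5% for Etv6, -16.5% for Trps1, -12.3% for Tcf7l2 and -8.99% for Tcf12, beside -8.17% for the mean over all bins, and divided by the tumour's mean all 4 genes remained lower, with limma p from 0.0609 to 0.920 before adjustment.

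**Figure D4:**
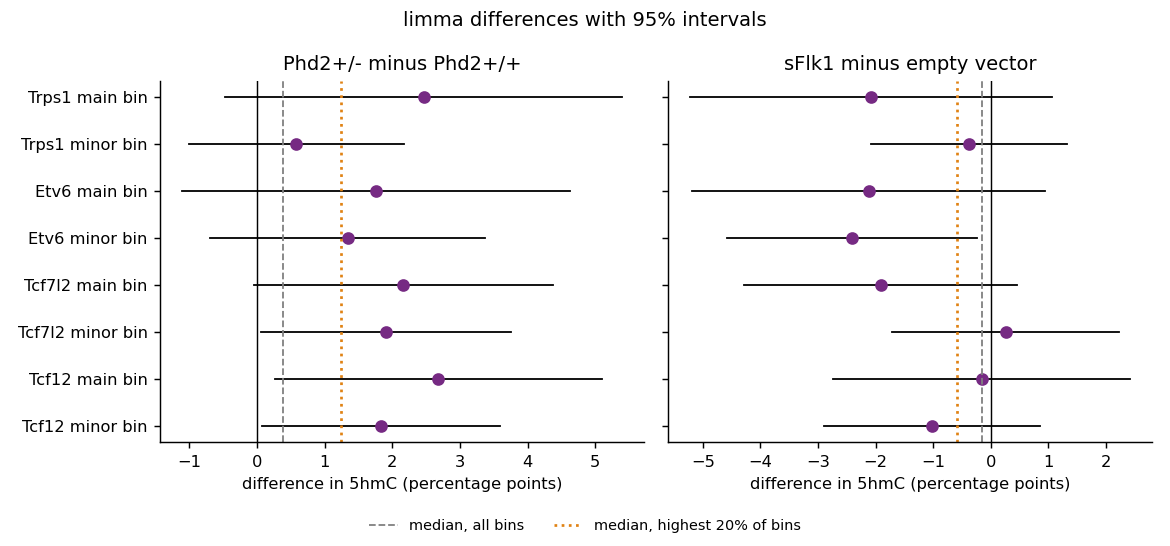
limma differences in percentage points (x axis) with 95% intervals for the 8 bins, Phd2+/- minus Phd2+/+ tumours at left and sFlk1 minus empty vector tumours at right; the dashed line is the median over all 8576 bins and the dotted line the median over the highest 20% of bins by level. All 8 points at left are above 0, and 7 of 8 at right are below it.

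Both models were also combined, as the mean of Phd2+/- minus Phd2+/+ and empty vector minus sFlk1, that is better minus less oxygenated tumours. All 8 bins were higher, against 72.3% of all bins, but the minor bins of Trps1 and Tcf7l2 were lower when divided by the tumour's mean. With limma, 4 of 8 had an unadjusted p under 0.05 in that direction, against 12.0% of all bins, and 0 of 8 passed adjustment, against 0.0117%. Of the highest 20% of bins by level, 92.9% were higher and 29.2% had an unadjusted p under 0.05. Over pairs, the differences were 1.91 percentage points (SE 0.661) for Etv6, 1.43 (SE 0.543) for Tcf7l2, 1.43 (SE 0.528) for Tcf12 and 1.37 (SE 0.552) for Trps1. All 4 were higher, against 77.9% of pairs, and had an unadjusted limma p under 0.05, from 0.00735 to 0.0188, against 18.9% of pairs that were higher at that threshold. Their adjusted p ran from 0.132 to 0.180, so 0 of 4 passed, as did 0% of pairs. Divided by the tumour's mean, all 4 genes were still higher, but 0 of 4 had an unadjusted limma p under 0.05 (0.143 to 0.463). Whether the better minus less oxygenated difference itself differed between the models was tested with limma as a difference of differences. It was 1.67 percentage points for Tcf12 (95% interval -0.494 to 3.83), 1.21 for Tcf7l2 (-1.01 to 3.44), 0.292 for Trps1 (-1.97 to 2.55) and -0.710 for Etv6 (-3.42 to 2.00), with adjusted p from 0.902 to 0.982, and of the pairs 0% passed, while 5.16% had an unadjusted p under 0.05. For single bins 0 of 8 passed, against 0.0117% of all bins, and 0 of 8 had an unadjusted p under 0.05, against 4.98%. The 4 genes share their tumours, and so are not separate replicates of these comparisons.

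Relatives and partners of the 4 factors were taken from lists chosen by family and known interaction, each gene at the bin that holds most of its body. All 51 other genes matched, in 49 bins, since Elf5 and Ehf share a bin, as do Ets1 and Fli1. Their median level was 3.89%, and 46 of 51 lay above the median of all bins. None reached the main bins of the 4 genes, which is no finding, since the 4 had been picked for their high level. The highest were the epithelial ETS genes Elf5 and Ehf at 7.40% (rank 43), followed by Elk3 at 6.25%.

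Among the other TCF/LEF factors, Tcf7l1, the family's main repressor, was the highest at 5.19% and Lef1 the lowest at 3.99%. Lef1 held 4.89% ± 1.14 in Phd2+/- and 2.82% ± 0.691 in Phd2+/+ tumours (mean ± SD), and 3.19% ± 0.524 in sFlk1 and 4.77% ± 0.458 in empty vector tumours. The other E protein genes, Tcf4 and Tcf3, held 5.20% and 3.62%. Of the GATA genes, Gata3, which directs luminal identity, was the highest at 5.97% and Gata1, an erythroid factor on the X chromosome, the lowest at 1.65%. Gata6 held 2.70% ± 1.15 in sFlk1 and 5.34% ± 0.230 in empty vector tumours (limma adjusted p = 0.394). Of the ETS genes, the lowest was the X-linked Elk1 at 2.27%. The list of beta-catenin and TCF partners ran from 3.32% at Axin2, a Wnt target and scaffold, to 5.68% at the co-activator gene Bcl9l. The partners and inhibitors of E proteins ran from 1.05% at Runx1t1 to 5.55% at Id2, an inhibitor without a DNA-binding domain.

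In the Phd2 comparison 45 of these 51 genes were higher in Phd2+/- tumours, against 75.1% of all bins. The median difference of the 51 was 0.986 percentage points, against 0.385 over all bins. However, 46 of the 51 lay above the median level of all bins, and no share was computed for bins of matching level. Of the 1715 bins highest by level, 95.3% were higher in Phd2+/- tumours, with a median difference of 1.25. Unadjusted limma p was under 0.05 for 27.2% of those 1715 bins. A shift of the 51 genes beyond their level is therefore not shown. Divided by the tumour's mean, 37 of the 51 were higher, with no share over all bins given for that scale. Unadjusted limma p was under 0.05 for 9 of 51, against 10.8% of all bins. These 9, all higher in Phd2+/- tumours, were Lef1, Gata3, the ETS genes Elk3 and Etv1, Id2 and Lyl1, and 3 others. The 3 were Bcl9, Tle3 and Apc, from the list of beta-catenin and TCF partners. Gata3 held 7.16% in Phd2+/- and 4.27% in Phd2+/+ tumours, and Etv1 6.20% in Phd2+/- and 3.68% in Phd2+/+ tumours. In the sFlk1 comparison 36 of 51 were lower in sFlk1 tumours, against 59.5% of all bins. The median difference was -0.252, against -0.146 over all bins. Of the 1715 bins highest by level, 26.4% were higher in sFlk1 tumours, with a median difference of -0.579. Unadjusted limma p was under 0.05 for 8.92% of those 1715 bins. Divided by the tumour's mean, 24 of the 51 were lower, again with no share over all bins. Unadjusted p was under 0.05 for 4 of 51, against 7.18% of all bins; these were Lef1, Gata6, Bcl9 and Id3, all lower in sFlk1 tumours. Id3, an inhibitor of E proteins, held 2.67% in sFlk1 and 4.71% in empty vector tumours. Under adjustment 0 of 51 passed in either comparison.

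**Figure D5:**
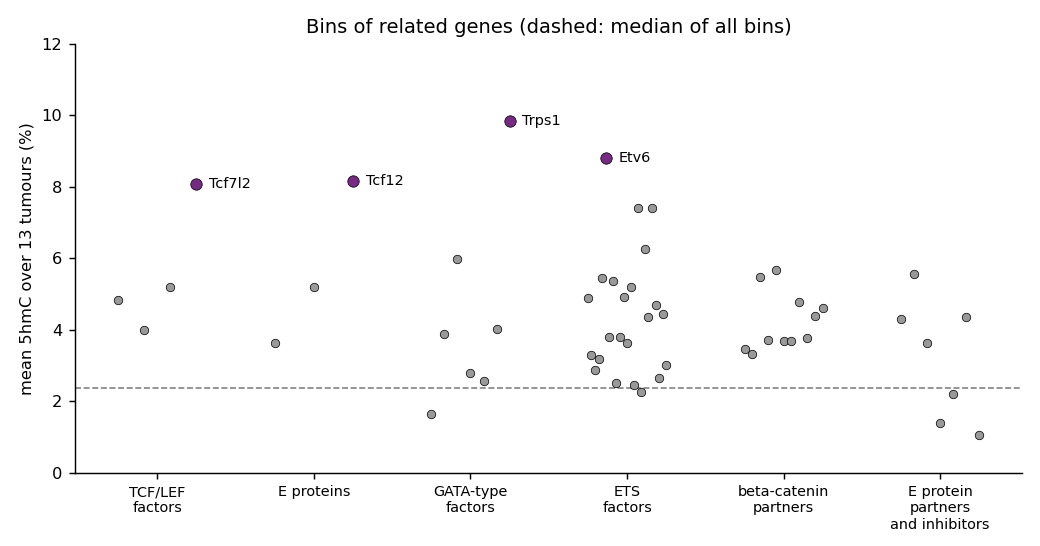
Mean 5hmC over the 13 tumours (y axis, percent, from 0) in the bin of each gene of 6 lists of related factors and partners, with Trps1, Etv6, Tcf7l2 and Tcf12 in purple and the others in grey; the dashed line is the median of all bins, 2.36%. The 4 named genes, which were picked for their high level, lie above all 51 others, the closest of which are Elf5 and Ehf at 7.40%.

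The bins whose profile over the 13 tumours was most like that of a gene, after division by the tumour's mean, are named as a description. For Trps1 they were the bins of Tbc1d4 (Pearson r = 0.920) and Nck2 (0.903), for Etv6 those of Cyp39a1 (0.875) and Grm5 (0.826), for Tcf7l2 that of Trmt13 (0.847), and for Tcf12 those of Cmip (0.872) and Mink1 (0.866). They are among the 2 best of 7326 to 7328 bins compared for each gene, and the points share the 13 libraries. Their own levels ran from 2.60% (Cyp39a1) to 7.61% (Nck2).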

How the data were processed

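The authors deposited 5hmC as the percent per 300 kb bin, in 1 column for each of 13 tumours. The submitters' processing notes name Bismark 0.13.1 and the build mm9, but the bins end at GRCm38 chromosome lengths, so coordinates are GRCm38, with genes from RefSeq (GRCm38.p6). The sources used here do not give the pooling of reads within a bin, a coverage minimum or control rates. Per the labels' protocols, tumours were flash-frozen and buffers held the iron chelator DFO.

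Of 9097 bins, those of chromosome Y, the mitochondrial genome and 214 others at 0 in all tumours were left out, leaving 8576. Percentages were fitted with limma 3.58.1 in R 4.3.3 (4 group means over 13 tumours, variance trend), over all bins and over 8548 adjacent pairs of bins, with Benjamini-Hochberg adjustment at 0.05. The code was tested on simulated data. Python 3.11.15 made summaries. The alternatives were the log2 scale (pseudocount 0.5), arcsine scale, division by each tumour's mean, bins above 0 in all tumours, no trend, sample weights, autosomes, 2 groups only, a replicate block and leaving out each tumour.

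The 4 genes, the lists and the tests were chosen with earlier results of these data known. Of related genes, the highest and lowest of each list and those with unadjusted p under 0.05 are named, with up to 2 bins of most similar profile per gene (1 of them is not reported here); genes of neighbouring bins were named after their values were seen.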

Additional observations from a re-analysis of the deposited data

Results flagged for a closer look

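In the main bin of Tcf7l2, Phd2+/- tumour 3 stood apart from the other tumours of its group, with 8.84% against 9.88% to 10.1% in the other 3. The gap to its nearest neighbour was 0.853 of the group's whole range, above Dixon's 95% critical value for 4 samples. The same ratio was computed for the 8 bins and for the 4 means of 2 bins, all in the Phd2+/- group, and chance alone passes that value in about 1 of 20 groups. The tumour's value was still above all 3 Phd2+/+ tumours, which held 7.61%, 6.22% and 8.75%.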

How the results depend on the processing

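Under every alternative run, 0 of the 8 bins and 0 of the 4 genes passed adjustment, and the lowest limma adjusted p among them was 0.0520 (Tcf12 as the mean of 2 bins, both models combined, no trend). Of 1032 recomputed differences, 1000 kept their direction and their side of the threshold, and 32 had the opposite sign. The cause was not tested. Many of the 1032 could not change direction. A difference is the same by construction with no trend, autosomes only, bins above 0 in all tumours or 2 groups only. So is a difference within 1 model when a tumour of the other model is left out. The count of 1000 is therefore no measure of robustness. The median level of the 4 genes, 7.12% over both bins, was 8.48% from the main bins alone. Division by the tumour's mean turned the Phd2 difference to -0.163 in the Trps1 minor bin and -0.00644 in the Etv6 main bin, the sFlk1 difference to 0.184 in the Tcf12 main bin, and the combined difference to -0.0814 in the Trps1 and -0.0182 in the Tcf7l2 minor bin, all as ratios to that mean. It turned the difference between the models to -0.164 and -0.315 in the minor and main bin of Trps1, -0.290 in the Tcf7l2 main bin, -0.0624 in the Tcf12 minor bin and -0.239 for Trps1 as the mean of 2 bins; sample weights gave -0.100 percentage points in the Trps1 main bin. Leaving out 1 tumour at a time gave ranges across 0, in percentage points: for Phd2, -0.0996 to 0.878 in the Trps1 minor bin; for sFlk1, -0.913 to 0.261 in the Trps1 minor bin, -0.606 to 1.28 in the Tcf7l2 minor bin and -0.580 to 0.309 in the Tcf12 main bin. For the difference between the models they were -0.479 to 0.839 and -0.644 to 1.56 in the minor and main bin of Trps1, -2.18 to 1.04 in the Etv6 and -0.452 to 1.07 in the Tcf7l2 main bin, -0.0459 to 0.612 for Trps1 and -1.90 to 0.0253 for Etv6 as means of 2 bins. Over the whole table, pairs passing adjustment numbered 0 for Phd2 and 0 for both models combined, but up to 39 and 109 under other settings, and up to 3 and 27 with 1 tumour left out. Deviations of tumours of the same replicate number had correlations of -0.0934 to 0.0432 over 18 pairs of tumours. Those of different numbers had -0.0776 to 0.0787 over 45 pairs. With groups this small and depth unknown, these values cannot exclude that the numbers mark a pairing. With a replicate block 1 pair of bins passed for Phd2 and 4 for both models combined. The lowest limma adjusted p of the 4 genes was then 0.0985 (Etv6, both models combined). Read depth is unknown, a 0 may stand for no reads, and a bin of 300 kb resolves neither promoter nor enhancer.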
